A study of Homo sapiens with 2 samples.

Results

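Mitochondrial ribosomal protein genes were examined in human breast cancer cells of the line called 468. The genes were taken by symbol, as all those starting MRPL or MRPS followed by a digit, and 78 of the 13017 listed genes met this rule. Of the 78, 49 carry symbols of the large subunit (MRPL) and 29 symbols of the small subunit (MRPS), and 0 were pseudogene or antisense symbols. One library came from cells transfected with a Smart Silencer, a mixture of silencing oligonucleotides, against the antisense RNA THAP7-AS1, and the other from cells given the negative control si-NC. Both were collected after 48 h of culture in L15 medium with serum, and the labels name no clone, batch or repeat culture. With 1 library per group, nothing below could be tested between the groups, and no value has a repeat. In bulk RNA of this kind, fewer cells of a type and less RNA per cell cannot be told apart.

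The mitochondrial ribosome translates the few messages encoded by mitochondrial DNA, all of them for subunits of the respiratory chain and the ATP synthase. Its RNA comes from mitochondrial DNA, whereas every one of its proteins is encoded in the nucleus, made in the cytosol and imported. Compared with its bacterial relatives, the mitochondrial particle has less RNA and many added proteins, so that some members have a bacterial counterpart and others are found only in mitochondria.

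Values are FPKM, fragments scaled to gene length and library size, so that levels can be compared between genes. They summed to 213442 in knockdown cells and 213888 in control cells, at an estimated depth of 11.05 and 10.92 M (mega) fragments. All 7 epithelial markers were present, with KRT19, a keratin of simple epithelia, at 1106 FPKM in knockdown cells and 1057 FPKM in control cells. Of 6 markers of other cells, 3 were listed: the fibroblast genes PDGFRB and COL1A1 stayed under 1 FPKM in both libraries, while the liver gene ALB was at 9.42 and 11.6 FPKM. The silencing of THAP7-AS1 was not checked, since that RNA is not analysed here, and knockdown is the label's word. THAP7, which overlaps it on the opposite strand, was at 8.38 FPKM in knockdown cells and 2.71 FPKM in control cells, and without stranded counting the RNAs of the pair cannot be told apart.

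All 78 genes were expressed. Their levels ran from 3.33 to 258 FPKM in knockdown cells and from 3.11 to 161 FPKM in control cells, with medians of 21.6 and 19.5 FPKM, against medians of 6.79 and 6.74 FPKM over all 10925 genes that averaged 1 FPKM or more. Together they took 1.14% of the summed FPKM in knockdown cells and 1.01% in control cells. Although the ribosome holds most of these proteins in a single copy, mean levels differed 63.6-fold between the highest and the lowest member.

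Subunits are taken by symbol here and below, and levels are ranked by the mean of both libraries. The highest level belonged to MRPS34, a protein of the small subunit with no bacterial counterpart, at 258 FPKM in knockdown cells and 161 FPKM in control cells. It was followed among MRPS symbols by MRPS26 at 108 and 121 FPKM and by MRPS18A, which sits in the large subunit in ribosome structures, at 78.3 and 83.1 FPKM. In the large subunit the highest were MRPL12, the stalk protein that recruits translation factors and is present in several copies per ribosome, at 86.2 and 78.0 FPKM, MRPL18 at 73.9 and 72.9 FPKM, and MRPL58, a peptidyl-tRNA hydrolase built into the large subunit, at 76.6 and 53.9 FPKM. MRPL12 shares 701 of its 1028 exon bases with ENSG00000262660 on the same strand, which was at 4.87 FPKM in knockdown cells and listed at 0 in control cells.

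By mean level, the lowest of the large subunit were MRPL42 at 3.48 and 3.11 FPKM, MRPL46 at 3.82 and 3.36 FPKM and MRPL27 at 4.70 and 4.02 FPKM in the knockdown and control libraries. In knockdown cells alone, MRPL10 was the lowest of all members, at 3.33 FPKM. The lowest MRPS symbols were MRPS27 at 5.08 and 5.23 FPKM, MRPS30, also a large-subunit protein by structure, at 7.57 and 7.86 FPKM and MRPS33 at 8.72 and 7.04 FPKM. Every member passed the filter of an average of 1 FPKM, and 17 of the 78 had a mean under 10 FPKM. The order of the members was much the same in both libraries, with a Spearman correlation of 0.976 across the 78 genes, which share the 2 libraries and are not replicates.

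**Figure D1:**
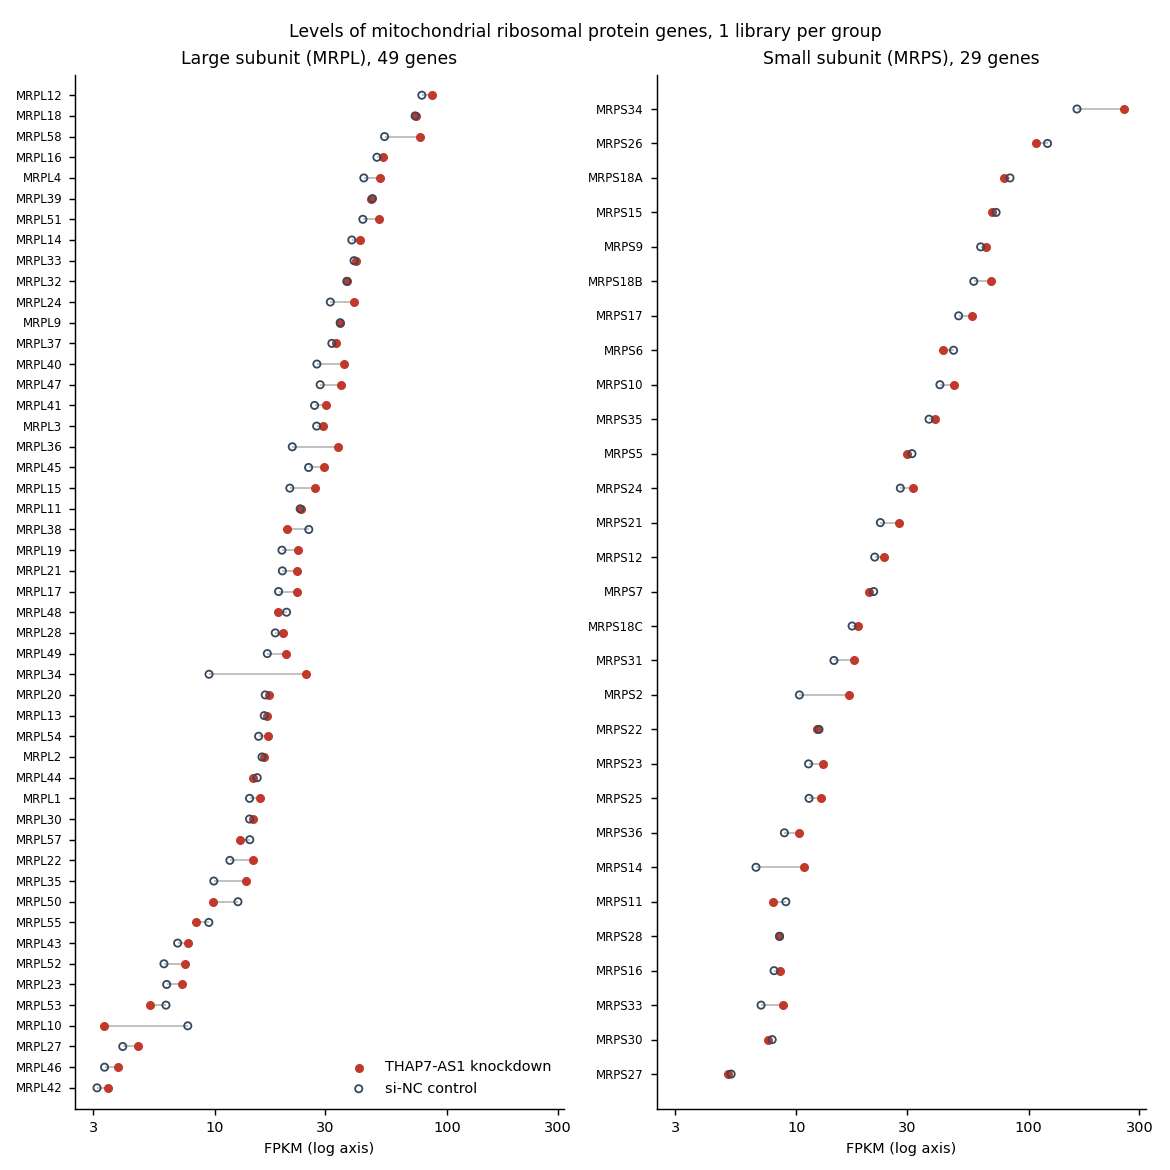
Level of each gene in FPKM on a log axis, ordered by mean level, with 1 filled point for the knockdown library and 1 open point for the control library. Most pairs of points lie close together, and MRPL34, MRPL36, MRPL10, MRPS34, MRPS2 and MRPS14 have the widest gaps.

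Small differences above 0 were common among these genes. For each gene the ratio was taken as log2((knockdown FPKM + 1)/(control FPKM + 1)), on which scale the change of low genes is understated. Of the 78 members, 58 had a log2 ratio above 0, against 53.1% of all 10925 genes. That share was larger among short transcripts, as given below, and most members are shorter than the median gene. Their median log2 ratio was 0.13, with quartiles at -0.0017 and 0.23, against a median of 0.02 over all genes, whose quartiles were -0.12 and 0.16. Above the upper quartile of all genes lay 32 members, and below the lower one 9.

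Fragment counts were estimated from the length of the principal transcript and the value of 1 fragment, and gave a median of 375 fragments per member in knockdown cells and 353 in control cells. The error that counting alone puts on a log2 ratio was then 0.10 at the median member and ran from 0.04 to 0.28. The ratio lay more than 2 such errors above the median of all genes in 24 members, against 15.7% of all genes, and more than 2 errors below it in 4 members, against 17.3% of all genes. In 30 of the 78 members the ratio was smaller in size than 1 counting error, a count not made over all genes. All of these counts use principal transcript lengths. With all exon bases the error was smaller, 0.08 at the median member. Further members then lay beyond 2 errors, a count not made over all genes. MRPL21 above and MRPS6 below the median of all genes were among them. These errors do not contain the spread between cultures, which 1 library per group cannot show.

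Few members differed by a large factor, which was also true of genes in general. A difference of at least 2-fold in favour of the knockdown library was seen in 1 member, against 0.604% of all genes, and the same in favour of the control library in 0 members, against 0.668% of all genes. At 1.5-fold, 5 members were higher in knockdown cells, against 2.98% of all genes, and 1 was lower, against 2.46% of all genes. The other 72 members differed by less than 1.5-fold. Spread among the members was of the size seen generally, with an SD of the log2 ratio, scaled from the MAD (median absolute deviation), of 0.18, against 0.21 over all genes.

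MRPL34, a small large-subunit protein with a bacterial counterpart, stood highest, at 24.8 FPKM in knockdown cells and 9.45 FPKM in control cells. Its log2 ratio of 1.30 had a counting error of 0.17, on an estimated 217 and 81.9 fragments. The annotation gives it 6 transcripts that total 1686 exon bases, of which 223 lie opposite exons of ABHD8, a gene at 17.3 and 13.9 FPKM. MRPL36, another small protein with a bacterial counterpart, was at 34.1 FPKM in knockdown cells and 21.6 FPKM in control cells, a log2 ratio of 0.64 with a counting error of 0.15. No listed gene shared exons with MRPL36.

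In the small subunit, MRPS34 had a log2 ratio of 0.68 with a counting error of 0.04, on an estimated 2924 fragments in knockdown cells and 1806 in control cells. MRPS2, with a bacterial counterpart, was at 16.9 and 10.3 FPKM, with a log2 ratio of 0.66 with a counting error of 0.13. Its exons overlap those of PIERCE1 on the opposite strand over 104 bases, and that gene was at 2.34 and 1.41 FPKM. MRPS14, also conserved from bacteria, was at 10.8 and 6.70 FPKM, with a log2 ratio of 0.62 with a counting error of 0.13. CACYBP, which lies opposite MRPS14 over 351 exon bases, was at 53.7 FPKM in knockdown cells and 57.0 FPKM in control cells. The part of opposite-strand reads in these ratios was not tested.

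MRPL10 went the other way. This protein forms the base of the stalk on which MRPL12 is mounted, and it was at 3.33 FPKM in knockdown cells and 7.66 FPKM in control cells. The log2 ratio of -0.9999 had a counting error of 0.18, on an estimated 63.4 and 144 fragments, and a fold of 1.9999 on the FPKM + 1 scale put it just outside the 2-fold rule. No listed gene shared exons with it. The next lowest were MRPL50 at 9.83 and 12.6 FPKM, with a log2 ratio of -0.33, and MRPL38, a protein of the central protuberance, at 20.4 and 25.4 FPKM, with a log2 ratio of -0.30. MRPL38 shares 1373 exon bases on its own strand with ENSG00000267426, which was at 0.913 and 0.419 FPKM.

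**Figure D2:**
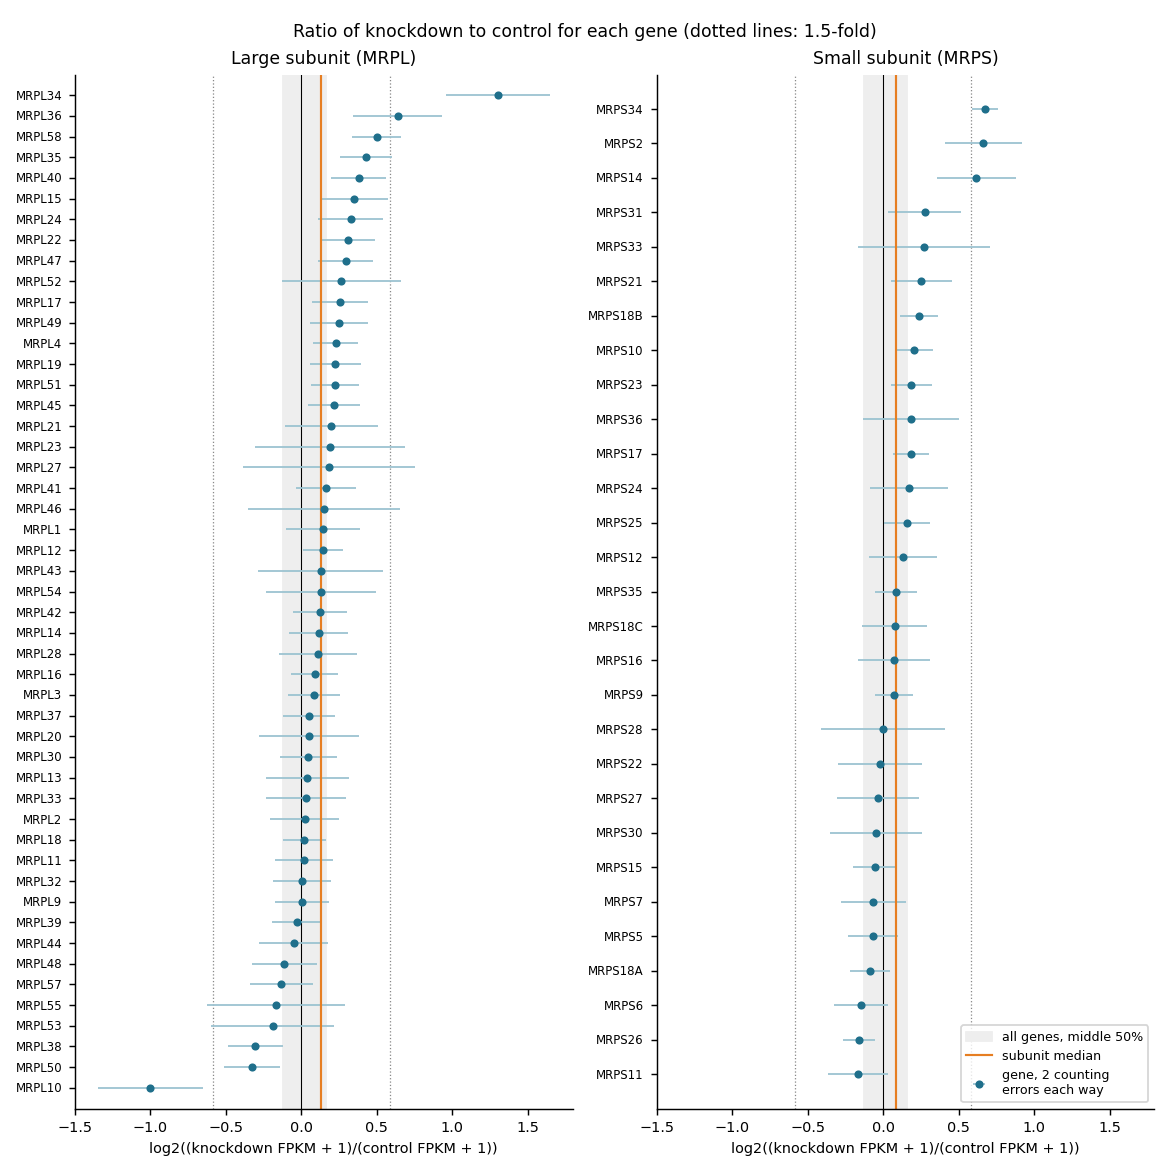
Log2 ratio of the knockdown over the control library for each gene, with bars of 2 counting errors each way, the median of each subunit in orange and the range between the quartiles of all genes in grey. MRPL34 lies alone at 1.30 and MRPL10 alone at -0.9999, while MRPS34, MRPS2 and MRPS14 form the upper end of the small subunit between 0.62 and 0.68.

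The promoter sequences of 4 members are shown because these genes lie at the ends of the range: MRPL34 and MRPL36 as the highest of the large subunit, MRPS34 as the highest of the small subunit, and MRPL50 as the lowest member for which a window was found. The windows are those of RefSeq on the build GRCh38.p14, not the hg19 of the deposited values, and run from 250 bases before to 50 bases after the annotated gene start. They lie at chr19:17302615-17302914 on the plus strand for MRPL34, chr5:1799788-1800087 on the minus strand for MRPL36, chr16:1773085-1773384 on the minus strand for MRPS34 and chr9:101398569-101398868 on the minus strand for MRPL50. MRPL34 has 4 annotated starts, and the window nearest the start of its principal transcripts is given. Capitals mark matches, on either strand, to the ETS core CCGGAAG, the YY1 core AAGATGGC, the E-box CACGTG or the NRF1 core GCGCATGCG, all factors known to act at promoters of genes for mitochondrial proteins or ribosome production.
MRPL34: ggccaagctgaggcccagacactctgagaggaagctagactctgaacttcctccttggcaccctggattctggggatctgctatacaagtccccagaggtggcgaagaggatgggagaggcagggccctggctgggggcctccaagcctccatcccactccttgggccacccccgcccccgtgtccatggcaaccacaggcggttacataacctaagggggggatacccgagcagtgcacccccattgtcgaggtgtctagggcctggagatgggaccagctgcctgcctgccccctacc
MRPL36: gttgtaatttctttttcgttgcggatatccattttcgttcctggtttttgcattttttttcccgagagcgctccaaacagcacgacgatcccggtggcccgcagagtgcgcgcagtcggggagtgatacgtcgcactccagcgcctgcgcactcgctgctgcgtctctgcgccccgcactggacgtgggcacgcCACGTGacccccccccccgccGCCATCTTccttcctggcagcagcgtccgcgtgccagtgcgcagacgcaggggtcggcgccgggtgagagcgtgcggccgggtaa
MRPS34: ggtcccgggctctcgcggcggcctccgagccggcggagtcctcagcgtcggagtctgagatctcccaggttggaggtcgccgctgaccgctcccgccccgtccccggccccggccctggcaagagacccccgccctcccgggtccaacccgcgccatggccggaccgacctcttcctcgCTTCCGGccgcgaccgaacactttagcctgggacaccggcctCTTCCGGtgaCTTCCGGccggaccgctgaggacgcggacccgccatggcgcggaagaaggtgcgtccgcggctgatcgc
MRPL50: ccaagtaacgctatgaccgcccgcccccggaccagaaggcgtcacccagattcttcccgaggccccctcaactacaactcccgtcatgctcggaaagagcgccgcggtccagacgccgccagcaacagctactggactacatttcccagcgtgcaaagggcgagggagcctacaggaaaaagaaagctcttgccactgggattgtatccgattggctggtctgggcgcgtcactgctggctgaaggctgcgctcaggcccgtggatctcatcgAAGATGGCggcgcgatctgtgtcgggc

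The MRPS34 window held 3 matches to the ETS core, and that of MRPL36 1 match to the YY1 core and 1 to the E-box. That of MRPL50 held 1 match to the YY1 core, which lies in the 50 bases after the gene start. The MRPL34 window held 0 matches. Over the family, 69 of the 78 genes were found in the promoter table, with 85 windows. The ETS core was in 38.8% of these windows, against 18.4% of the 12833 windows of genes averaging 1 FPKM or more and 10.3% of all 35116 windows. The YY1 core was in 27.1% of the members' windows, against 5.14% and 2.89%. For the E-box the shares were 10.6%, 9.37% and 7.26%, and for the NRF1 core, in the exact letters searched, 3.53%, 3.30% and 1.92%. Some genes have several windows that overlap. Matches before and after the gene start were counted alike. A match is a run of letters and no measure of binding.

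**Figure D3:**
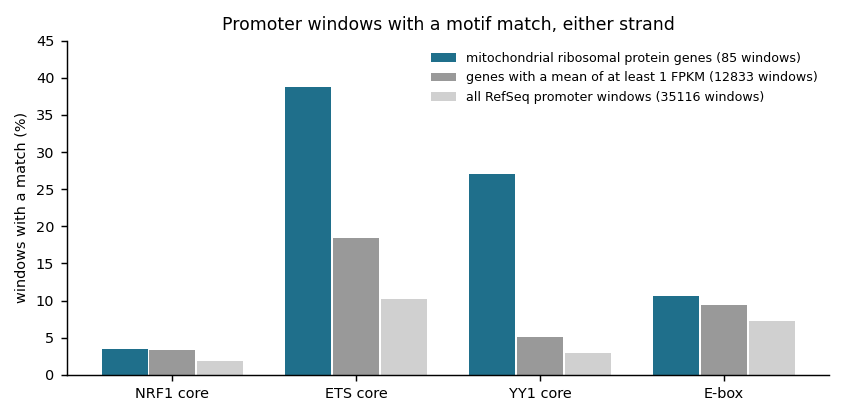
Share of promoter windows, in percent, with a match to each motif on either strand, for mitochondrial ribosomal protein genes, genes averaging 1 FPKM or more and all windows of the RefSeq table. The bars of the members stand highest for the ETS core, at 38.8%, and for the YY1 core, at 27.1%.

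The 2 subunits were compared next. A log2 ratio above 0 was seen in 53.1% of all genes. It was seen in 40 of the 49 large-subunit genes (81.6%) and in 18 of the 29 small-subunit genes (62.1%). The median log2 ratio was 0.13 for the large and 0.09 for the small subunit, a difference of 0.04. The mean was 0.12 for the large and 0.13 for the small subunit, so that the order of the subunits turned with the measure. Median levels of the large subunit were 22.6 FPKM in knockdown cells and 19.5 FPKM in control cells, and those of the small subunit 20.5 and 21.5 FPKM. Summed over its genes, the large subunit had 1299 FPKM in knockdown cells and 1163 FPKM in control cells, a ratio of 1.12. For the small subunit the sums were 1127 and 998 FPKM, a ratio of 1.13, which was 1.04 without MRPS34.

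Large-subunit proteins with a bacterial counterpart were above 0 in 28 of 30 cases, against 53.1% of all genes, and had a median log2 ratio of 0.13. The exceptions were MRPL10 and MRPL55, of which MRPL55 was at 8.30 FPKM in knockdown cells and 9.43 FPKM in control cells. Principal transcripts of the group had a median of 1122.5 bases, and 61.5% of all genes from 1000 to 1500 bases were above 0. After MRPL34 and MRPL36 the highest of this group was MRPL35 at 13.7 and 9.91 FPKM, with a log2 ratio of 0.43. MRPL15 followed at 27.1 and 21.1 FPKM, with a log2 ratio of 0.35. Nearest to 0 in the group were MRPL9, at 34.8 and 34.7 FPKM, and MRPL32, at 37.2 and 37.1 FPKM. Their log2 ratios of 0.0034 and 0.0046 were above 0 but below the median of all genes, 0.0153.

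Next came the 7 proteins around the exit tunnel, through which the new chain leaves the ribosome towards the inner membrane. Their median log2 ratio was 0.26, and they ran from -0.05 to 0.33. Above 0 were 6 of 7, against 53.1% of all genes. MRPL24 was at 39.7 FPKM in knockdown cells and 31.5 FPKM in control cells, a log2 ratio of 0.33. MRPL22 was at 14.7 and 11.6 FPKM, with a log2 ratio of 0.31, and MRPL47 at 35.1 and 28.5 FPKM, with a log2 ratio of 0.29. MRPL17 had 22.7 and 18.8 FPKM, MRPL45, which holds the ribosome to the membrane, 29.6 and 25.4 FPKM, and MRPL23 7.23 and 6.21 FPKM. Below 0 was MRPL44, a protein with a ribonuclease III fold, at 14.7 and 15.2 FPKM.

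The 6 stalk proteins had a median log2 ratio of 0.07, and 4 of 6 were above 0, against 53.1% of all genes. MRPL10 lay far below the other stalk proteins, which ran from -0.19 to 0.14. The difference between the stalk and exit tunnel groups was not tested. MRPL12, which binds MRPL10, had a log2 ratio of 0.14, MRPL1 of the opposite stalk was at 15.7 FPKM in knockdown cells and 14.1 FPKM in control cells, and MRPL11 at 23.6 and 23.3 FPKM. MRPL54 was at 17.0 and 15.5 FPKM and MRPL53 at 5.28 and 6.17 FPKM. Against 53.1% of all genes, 5 of 8 proteins of the central protuberance, the crown of the large subunit, were above 0. The median log2 ratio of the 8 was 0.08. MRPL58 was the highest of them with a log2 ratio of 0.50, and MRPL40, whose gene lies on the same chromosome as THAP7, chromosome 22, was at 36.1 and 27.5 FPKM, with a log2 ratio of 0.38. MRPL18 and MRPL46 were nearer to 0, at 0.02 and 0.15, MRPL27 had 0.18, and MRPL48 was at 18.8 and 20.4 FPKM. Lowest of the group were MRPL38 and MRPL55, with log2 ratios of -0.30 and -0.17.

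Among the 19 large-subunit proteins found only in mitochondria, 12 were above 0, against 53.1% of all genes. The median log2 ratio of the 19 was 0.13. Besides MRPL58 and MRPL40 the higher ones were MRPL52 at 7.46 FPKM in knockdown cells and 6.05 FPKM in control cells, MRPL49 at 20.2 and 16.8 FPKM and MRPL51 at 50.9 and 43.4 FPKM. MRPL52 had a log2 ratio of 0.26 with a counting error of 0.20 from the principal transcript, or 0.12 from all its exon bases, so that whether it lay within 2 errors of 0 depended on the length used. Below 0, after MRPL50 and MRPL38, were MRPL53, MRPL57 at 12.8 and 14.2 FPKM, MRPL48, MRPL44 and MRPL39 at 46.9 and 47.8 FPKM. MRPL41, MRPL43, MRPL42 and MRPL37 had log2 ratios of 0.16, 0.13, 0.12 and 0.05.

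Ratios of the other large-subunit genes with a bacterial counterpart follow, after the ends of the group given above. MRPL4, MRPL19 and MRPL21 had log2 ratios of 0.23, 0.23 and 0.20. MRPL14 and MRPL28 both had 0.11, MRPL16 0.09, MRPL3 0.08, and MRPL20 and MRPL30 both 0.05. MRPL13 had 0.04, MRPL33 0.03, and MRPL2 0.02. In each of MRPL28, MRPL3, MRPL13, MRPL33, MRPL2, MRPL20 and MRPL30 the counting error was larger than the ratio.

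In the small subunit, 10 of 16 proteins with a bacterial counterpart were above 0, against 53.1% of all genes. The median log2 ratio of the 16 was 0.08. Behind MRPS2 and MRPS14 came MRPS21 at 27.6 FPKM in knockdown cells and 23.0 FPKM in control cells, a log2 ratio of 0.25, MRPS10 at 47.9 and 41.5 FPKM and MRPS17 at 56.9 and 49.9 FPKM. MRPS24 had a log2 ratio of 0.17 and MRPS12, a protein of the decoding centre, 0.13. MRPS18C, MRPS16 and MRPS9 lay between 0.07 and 0.08. Below 0 were MRPS11 at 7.93 and 9.003 FPKM, MRPS6 at 42.8 and 47.5 FPKM, MRPS5 at 29.997 and 31.4 FPKM, MRPS7 at 20.5 and 21.5 FPKM, MRPS15 at 69.6 and 72.4 FPKM and MRPS28 at 8.44 and 8.46 FPKM. With counting errors from principal transcripts, none of these 6 lay more than 2 errors below the median of all genes. With errors from all exon bases, 0.04 for MRPS6 and 0.08 for MRPS11, these 2 genes did. The share of all genes was not taken with such errors.

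Of 10 small-subunit proteins found only in mitochondria, 7 were above 0, against 53.1% of all genes. The median log2 ratio of the 10 was 0.17. After MRPS34, MRPS31 was at 17.7 FPKM in knockdown cells and 14.5 FPKM in control cells, MRPS18B at 68.6 and 58.0 FPKM and MRPS23 at 12.98 and 11.3 FPKM. MRPS33, MRPS25 and MRPS35 had log2 ratios of 0.27, 0.16 and 0.09. MRPS26 was lower, at 108 and 121 FPKM, with a log2 ratio of -0.16 with a counting error of 0.05, and MRPS22 and MRPS27, a protein with pentatricopeptide repeats, were close to 0 at -0.02 and -0.04. Some symbols do not match the place of the protein. MRPS18A and MRPS30 belong to the large subunit in ribosome structures and had log2 ratios of -0.08 and -0.05, and MRPS36, now known as a part of the oxoglutarate dehydrogenase complex, had 0.19.

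**Figure D4:**
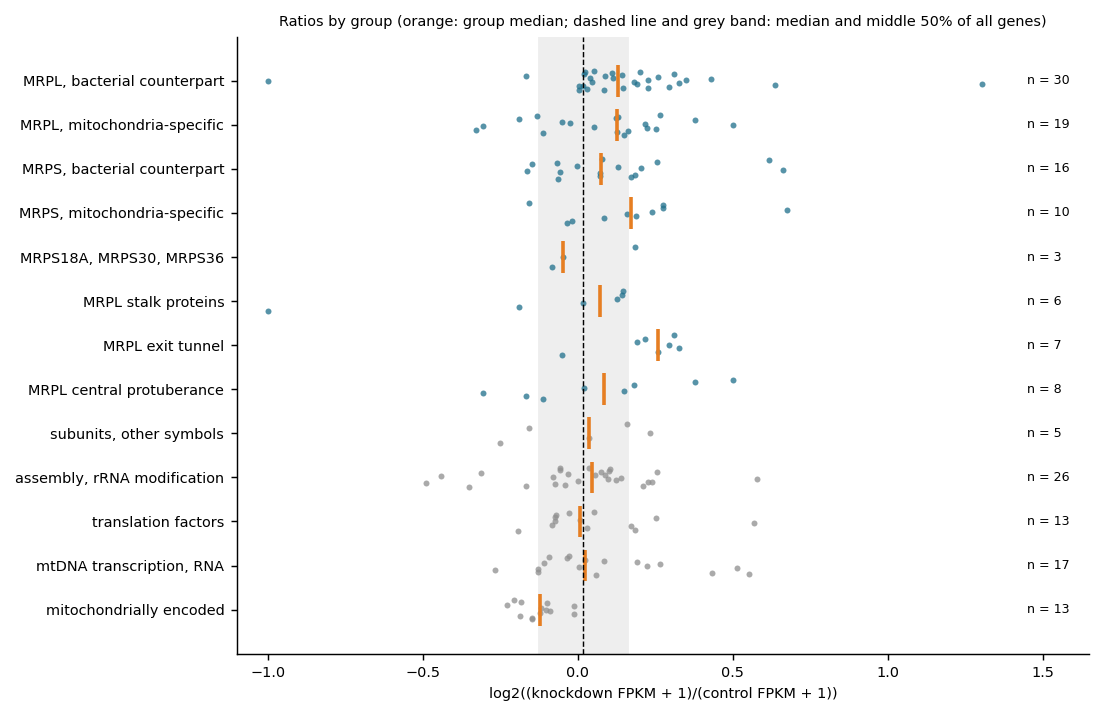
Log2 ratio of each gene by group, with the group median in orange and, over all genes, the median as a dashed line and the range between the quartiles as a grey band. Blue points are MRPL and MRPS genes, and the exit tunnel group has the highest median, 0.26, while the mitochondrially encoded genes lie below 0.

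Ribosomal proteins listed under other symbols did not lie to one side. GADD45GIP1, a large-subunit protein, was at 165 FPKM in knockdown cells and 141 FPKM in control cells, and CHCHD1 at 19.9 and 17.7 FPKM. DAP3, the GTP-binding protein of the small subunit, was at 24.7 and 24.1 FPKM, whereas AURKAIP1 was at 48.0 and 57.3 FPKM and PTCD3 at 6.10 and 6.92 FPKM. Of the factors that assemble the ribosome or modify its RNA, 26 of 27 passed the filter, with a median log2 ratio of 0.04. Above 0 were 15 of the 26, against 53.1% of all genes. At 1.5-fold, 0 were higher and 0 lower in knockdown cells, against 2.98% and 2.46% of all genes. RCC1L, a factor of pseudouridylation and assembly, was at 6.76 and 4.19 FPKM, with a log2 ratio of 0.58. MPV17L2 was at 11.5 and 16.5 FPKM, with a log2 ratio of -0.49, METTL15, a methyltransferase of the small-subunit RNA, at 3.01 and 4.45 FPKM, and MALSU1, an assembly factor of the large subunit, at 4.85 and 6.46 FPKM.

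Translation factors of mitochondria were above 0 in 7 of 13 cases, close to the 53.1% of all genes, and had a median log2 ratio of 0.0060. MTFMT, which formylates the initiator tRNA, had the largest ratio, 0.57, at 3.67 FPKM in knockdown cells and 2.15 FPKM in control cells. GFM2, a factor of ribosome recycling, was at 12.4 and 10.2 FPKM and TSFM, an elongation factor, at 7.20 and 8.37 FPKM. MTRF1L, a release factor, was at 11.8 and 10.3 FPKM. Of 17 genes of mitochondrial transcription and RNA processing, 10 were above 0, against 53.1% of all genes. The median of the 17 was 0.02. TWNK, the mitochondrial DNA helicase, was at 8.06 and 5.18 FPKM, and its exons overlap those of MRPL43 on the opposite strand over 149 bases. MTERF1 was at 1.477 and 0.734 FPKM and MTERF2 at 3.47 and 2.31 FPKM, both of a family of factors that bind mitochondrial DNA or RNA. TFAM, which packages mitochondrial DNA, was at 14.9 and 18.2 FPKM.

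The 13 mitochondrially encoded proteins, which this ribosome makes, had messages with log2 ratios between -0.23 and -0.01 and a median of -0.12. All 13 were below 0, against 5119 of all 10925 genes. Together these messages took 14.6% of the summed FPKM in knockdown cells and 15.8% in control cells. Cytosolic ribosomal protein genes, 83 in number, were above 0 in 70 cases, against 53.1% of all genes, with a median log2 ratio of 0.08. Of the 83, 4 were 1.5-fold higher in knockdown cells, against 2.98% of all genes. The sum of the 83 was 10380 FPKM in knockdown cells and 9754 FPKM in control cells. The difference between either group and the mitochondrial ribosomal protein genes was not tested.

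Length moved with the ratio across the transcriptome. Principal transcripts of the members had a median of 1357 bases, against 2967 bases for all genes, and among all genes the median log2 ratio was 0.08 below 1000 bases, 0.06 from 1000 to 1500 bases, 0.03 from 1500 to 2500 bases and -0.0078 from 2500 bases on. In the same classes the members had medians of 0.15, 0.14, 0.08 and 0.10, over 18, 28, 22 and 10 genes. The share of all genes above 0 in these classes was 68.2%, 61.5%, 57.3% and 48.6%. Of the members, 15 of 18, 21 of 28, 15 of 22 and 7 of 10 were above 0. By level, the members' medians were 0.12 below 10 FPKM, 0.11 from 10 to 20 FPKM, 0.16 from 20 to 50 FPKM and 0.09 from 50 FPKM on, against medians between 0.0083 and 0.03 over all genes in those classes. The part of length in the ratios was not tested.

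**Figure D5:**
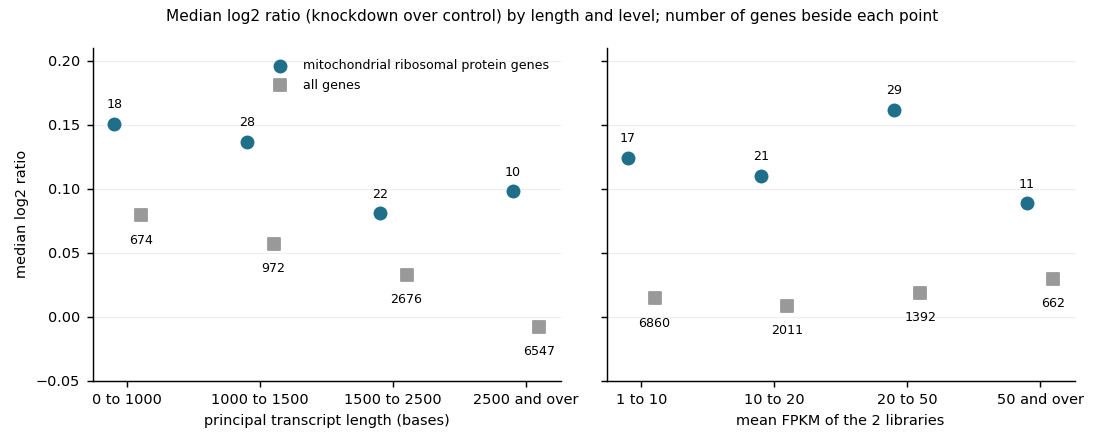
Median log2 ratio of the knockdown over the control library in classes of principal transcript length and of mean level, for mitochondrial ribosomal protein genes (circles) and all genes (squares), with the number of genes beside each point. The circle lies above the square in each of the 8 classes.

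Exons shared with other genes concern many members. By the annotation, 12 members share exon bases with another listed gene on the same strand and 19 with one on the opposite strand, which leaves 47 that share with neither. Of these 47, 35 had a log2 ratio above 0, against 53.1% of all genes, and the median of the 47 was 0.15. Over the 47, the small subunit had a median of 0.19 and lay above the large subunit by 0.04, the reverse of the order over all 78.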

How the data were processed

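RNA of 1 knockdown and 1 control library was sequenced. The authors deposited 1 FPKM value per gene and library, made with cutadapt, HISAT2 2.0.5 and StringTie on the build hg19, per the submitters' processing notes. Not given in the sources used here are the annotation, the strandedness and the versions of cutadapt and StringTie. Since the silencer stands in the treatment label of either sample, groups were taken from the genotype label.

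Identifiers without version were matched to symbols, which 12903 of 13017 had. Genes averaging 1 FPKM or more were kept, and log2((knockdown + 1)/(control + 1)) was computed with a pseudocount of 1 FPKM, in Python 3.11.15 with numpy 2.4.6, pandas 2.3.3 and matplotlib 3.10.9. Transcript lengths and exon overlaps came from GENCODE release 29, which is on GRCh38 and was joined by identifier only. Depth was estimated from the smallest steps of FPKM times length in genes with a single transcript, with an upper bound of 0.12 set after the values were seen. Counting errors rest on that estimate, on principal transcript lengths and on Poisson counting, and they leave out variation between cultures. The scripts were tested on simulated data.

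Values in both libraries are given for members at least 1.5-fold apart, the 8 highest and 8 lowest ratios and the 3 highest and 3 lowest levels of each subunit, and the extremes of each structural group. Of each other list, up to 4 genes with the largest ratios in size are named. Other members were named beyond this rule, after their values were seen. Members and gene lists were chosen with earlier results of these data known. Alternatives covered the pseudocount, the filter, the scaling, the assignment of subunits and genes that share exons.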

Additional observations from a re-analysis of the deposited data

How the results depend on the processing

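No paired analysis was possible because each group has 1 library, so that the groups share fewer than 2 replicate numbers. The count of members at least 2-fold lower, 0 as reported, was 1 with a pseudocount of 0.1 FPKM, after centring on the median of all genes, after equal sums without mitochondrially encoded genes or without the 100 most abundant genes, and after quantile normalization, because MRPL10 lies at the limit. With a pseudocount of 5 FPKM the median log2 ratio was 0.090 over all members and 0.092 over the large subunit, 2 members in place of 5 were at least 1.5-fold higher, and MRPL34 and MRPL10 had ratios of 1.04 and -0.60. Quantile normalization gave a median of 0.10 over all members. Under centring, both scalings to equal sums and quantile normalization, 56 members in place of 58 were above 0. The share of all genes above 0 was then between 49.2% and 50.3%. Without members that share exons on the same strand, the small subunit had a median ratio of 0.13 and median levels of 18.4 FPKM in the knockdown library and 17.4 FPKM in the control library. With subunits assigned by structure the small subunit had median levels of 22.2 FPKM in the knockdown library and 21.6 FPKM in the control library. In both of these alternatives the knockdown library had the higher median, the reverse of the order over all MRPS symbols. With means in place of medians the small subunit had 0.13, and the large minus small difference was -0.0020 in place of 0.04. Over members that share no exon with a listed gene on either strand, an alternative chosen after seeing the data, the median was 0.15, that of the small subunit 0.19, the difference -0.039, and 35 were above 0. The cause was not tested. For 32 named members, only the alternatives of pseudocount and scaling were run. Under them 190 of 192 values moved by less than the spread of all genes at that level, and 0 changed sign. A pseudocount cannot turn the sign of a ratio, and centring moves every ratio by the same 0.0153. These counts are therefore no test of the ratios.

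With 1 library per group, differences between the libraries cannot be told apart from differences between any pair of cultures. The estimated depth rests on few genes and gives counting error only, and ratios of members with under 100 fragments are the least precise.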
